A study of Homo sapiens with 9 samples.

Results

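The peaks of LSD1 before hormone and after 30 min of hormone were compared as 2 lists of genomic regions in T47D-MTVL cells. All peaks of both lists entered, 34990 at 0 min and 20495 at 30 min, together 55485 of the 118560 peaks in the LSD1, HP1γ and BPTF lists of the study. A peak was called kept when it overlapped a peak of the other list by at least 1 bp, lost when it was listed at 0 min only, and gained when it was listed at 30 min only. These 3 words name list membership and are used in no other sense. The study followed chromatin in the first minutes of progestin treatment with 9 ChIP-seq samples and antibodies against 4 proteins (LSD1, HP1γ, BPTF and histone H2A). T47D-MTVL is a human luminal breast cancer line that has the progesterone receptor and an integrated reporter under a mouse mammary tumour virus promoter. Both LSD1 samples were plated in medium free of phenol red with charcoal-stripped serum for 48 h, kept without serum for 1 day and fixed for 10 min in 1% formaldehyde. The 0 min sample is labelled as unstimulated, and the 30 min sample received R5020, a synthetic progestin, at 10 nM. Both used the abcam anti-LSD1 antibody, and there was 1 library at each time, so every difference below is between 2 libraries and none has a replicate check or a p-value. Intervals of shares are Wilson 95% intervals, which cover the number of peaks and not the spread between cultures. The labels name no input library and none was analysed here. Peak lists cannot show whether the antibody bound LSD1.

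LSD1, encoded by KDM1A, is a flavin-dependent enzyme that removes methyl groups from mono- and dimethylated lysine 4 of histone H3. It works with the corepressor CoREST and with histone deacetylases at silenced genes, and it can also act at enhancers. In progestin-responsive breast cancer cells it is known from a repressive complex with the unliganded progesterone receptor and HP1γ, which holds hormone-inducible genes in check before hormone arrives.

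The gained regions ranked 2 and 3 in the 30 min list are shown first, because both hold repeated sequence. Each is the central 300 bp of the peak on the plus strand of GRCh37. Capitals mark matches, on either strand, to 6 short motifs: the hormone response hexamer TGTTCT, FOXA TGTTTAC, AP-1 TGANTCA, the GATA-factor motif AGATAA, the ETS-factor motif CCGGAA and the E-box CACCTG.
Gained, between genes on 1q, score 159.73, chr1:163521782-163522081: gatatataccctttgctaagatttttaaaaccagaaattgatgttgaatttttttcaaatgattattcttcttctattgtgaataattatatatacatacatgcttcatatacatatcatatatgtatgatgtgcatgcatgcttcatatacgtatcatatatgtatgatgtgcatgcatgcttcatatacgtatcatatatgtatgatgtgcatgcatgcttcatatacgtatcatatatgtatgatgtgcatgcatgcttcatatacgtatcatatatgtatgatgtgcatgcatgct
Gained, at TMC6 on 17q, score 157.97, chr17:76111676-76111975: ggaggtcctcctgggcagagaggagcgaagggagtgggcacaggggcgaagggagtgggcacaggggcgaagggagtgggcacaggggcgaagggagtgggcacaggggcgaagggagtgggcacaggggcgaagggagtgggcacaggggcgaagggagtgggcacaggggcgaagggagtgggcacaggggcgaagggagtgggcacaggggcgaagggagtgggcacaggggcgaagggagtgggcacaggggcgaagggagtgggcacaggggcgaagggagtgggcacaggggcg
Both hold a tandem repeat, in which a short unit recurs along much of the window, and neither holds any of the 6 motifs. The 17q window is 71.3% GC and matched itself at 94.98% of positions when shifted by 21 bases, and the 1q window, where the repeat begins partway, matched itself at 77.4% when shifted by 39 bases. The 17q region was picked after its values were seen, as the highest-scored gained peak with at least 50% GC.

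The 30 min list was shorter, and its peaks were narrower. Peak number went from 34990 to 20495, a change of -41.4%, and the sequence covered went from 20.5 to 9.45 Mb, a change of -54.0%. The median peak was 536 bp wide at 0 min and 437 bp wide at 30 min. The score is the authors' own value per peak, with 30 as the lowest value in both lists. Its median was nearly the same at both times, 36.26 and 36.13, while the upper end was lower at 30 min, with 95th percentiles of 61.7 and 54.1. Peaks scored at least 50 numbered 5076 at 0 min and 1709 at 30 min (-66.3%), and those scored at least 70 numbered 877 and 174 (-80.2%). The difference was therefore larger among high-scored peaks than over the whole list. The depth of the LSD1 libraries is unknown, so fewer bound regions and a library in which fewer regions pass the caller cannot be told apart from these lists.

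Very few regions were listed at both times. Of the 0 min peaks, 1299 were kept, 3.71% (3.52 to 3.92), and 33691 were lost. Of the 30 min peaks, 1308 were kept, 6.38% (6.06 to 6.72), and 19187 were gained, 93.6% (93.3 to 93.9). The overlap rule moved the kept share of 0 min peaks from 1.67%, with 50% of both peaks required, to 7.69%, with peaks up to 1 kb apart. The kept regions formed 1325 overlapping pairs with a median overlap of 326 bp. Lost peaks lay a median of 22.3 kb from the nearest 30 min peak, 15.4% of them within 5 kb and 74.0% within 50 kb. Gained peaks lay a median of 16.5 kb from the nearest 0 min peak. Within 50 kb of a 0 min peak lay 73.1% of gained peaks. Most lost and gained peaks thus had a peak of the other list within 50 kb, and by definition none overlapped one. How often random places in peak-dense stretches would have a peak as near was not computed. These distances therefore cannot be told apart from peak density.

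Kept peaks had higher scores and were wider than lost ones at 0 min. Their median score was 40.66 against 36.15 for lost peaks, and their median width 610 bp against 535 bp. The kept share was 2.49% (2.02 to 3.06) in the lowest score decile of the 0 min list and 7.55% (6.72 to 8.47) in the highest. In the 30 min list it was 5.41% (4.52 to 6.48) in the lowest and 9.80% (8.59 to 11.2) in the highest. A wider peak meets the 1 bp rule more easily. Chromosome 3 held 502 of the 1299 kept peaks but 17.4% of all 0 min peaks, and its median score was 39.5. Whether score goes with being kept apart from width and chromosome was not tested.

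**Figure D1:**
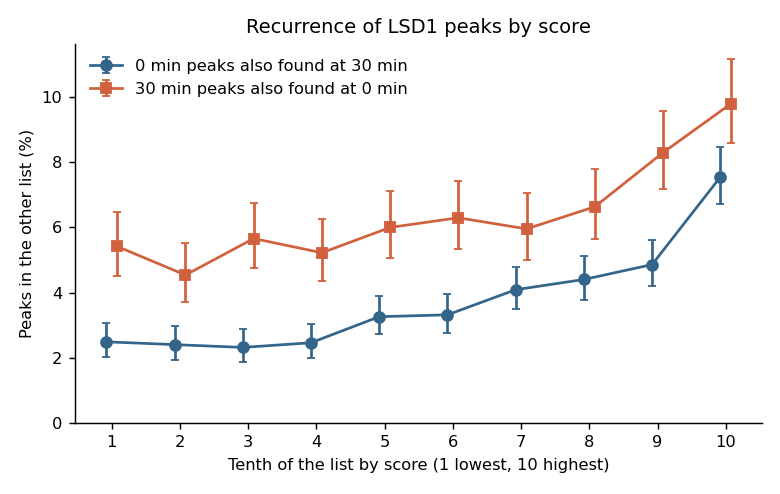
Share of LSD1 peaks found in the other list (y axis, percent, Wilson 95% intervals) by score decile (x axis, 1 lowest to 10 highest) for the 0 min list (circles) and the 30 min list (squares). Both curves are highest in the last decile, at 7.55% and 9.80%, so most top-scored peaks also have no partner.

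The score at 0 min said little about the score at 30 min within the kept pairs. Across the 1325 pairs the Spearman correlation of the scores was 0.096, a description over peaks of the same 2 libraries. Only 57 pairs were in the top decile of both lists, with 273 in that of the 0 min list and 207 in that of the 30 min list. The pair with the highest mean rank lay between genes on chromosome 20, chr20:58984041-58985360 at 0 min with score 108.86 and chr20:58984496-58985264 at 30 min with score 86.66, and the 0 min peak overlapped an HP1γ peak at 0 min. Others lay in introns of VPS8, an endosomal tethering protein (76.1 and 82.62), and SMYD3, a lysine methyltransferase (72.34 and 80.02). The strongest 0 min peak with a partner lay between genes on the long arm of chromosome 3, with score 130.51 at 0 min and 60.76 at 30 min. The 2nd, with score 127.84, lay in an intron of MECOM, a zinc finger transcription factor gene.

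The strongest peaks of the 2 lists were in different parts of the genome. Of the 20 highest-scored 0 min peaks, 18 were on chromosome 3, against 2 of the 20 highest at 30 min. The 5 highest lost peaks were in introns of ACAP2 (152), SPATA16 (138.01) and ATP11B (134.88), and between the deposited gene spans at 51.8 kb from the start of ATP13A5 (144.3) and 150.4 kb from that of PIK3R1 (138.88). The 5 highest gained peaks were in introns of RBPMS (160.57) and KCNS3 (138.83), and between the deposited spans at 230.2 kb from the start of NUF2 (159.73), 12.985 kb from that of TMC6 (157.97) and 986.4 kb from that of TPTE (125.77). The peak at TMC6 lies inside this gene in the later GENCODE annotation, whose span, chr17:76103478-76128488, is longer than the deposited one. No gene was named in both groups, but these are 5 peaks each that cannot overlap by definition, so nothing follows from it. Over all genes, 14.2% had peaks at both times.

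Tandem repeats were examined over all peaks after the gained regions above had been read. A window of 300 bp was called a tandem repeat when it matched itself at 80% or more of positions after a shift of up to 100 bases. The 1q window shown above, at 77.4%, was below this minimum and is not among the peaks counted here. At 0 min 19 of 34990 peaks met the minimum, 0.0543% (0.0348 to 0.0848), and at 30 min 157 of 20495, 0.766% (0.656 to 0.895). The share in every 10th tile of the genome was 0.126%, so it was below the genome at 0 min and above it at 30 min. It was higher still among high-scored 30 min peaks: 74 of 1709 peaks scored at least 50, 4.33% (3.46 to 5.40), and 8 of the 20 scored at least 100. At 0 min 8 of 5076 peaks scored at least 50 met it, 0.158% (0.0799 to 0.311), and 1 of 83 scored at least 100. The 157 repeat peaks had a median score of 48.27, against 36.045 for the other 30 min peaks, a median shift of 44 bases and a median GC content of 54.5%. In the HP1γ lists the share was 0.371% at 0 min and 0.487% at 30 min. Of the 157, 23 (14.6%) overlapped an HP1γ peak at 0 min and 18 (11.5%) one at 30 min. Their part in the list of gained peaks is small in number, 150 of 19187.

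Base composition spread in both directions at 30 min. The median GC content of a peak was 37.6% at 0 min and 38.1% at 30 min, but the interquartile range went from 34.96 to 40.8% at 0 min to 33.3 to 44.2% at 30 min. Peaks with 50% GC or more numbered 421 at 0 min (1.20%) and 1778 at 30 min (8.68%), although the list was shorter. Peaks under 30% GC numbered 346 (0.989%) and 1850 (9.03%). The middle band of 35 to 40% GC held 44.7% of peaks at 0 min and 24.7% at 30 min. Of all 300 bp tiles of the genome, which differ from peaks in width, 15.9% had 50% GC or more and 22.9% had 35 to 40%. The share of GC-rich peaks was thus below that of the tiles at both times. In the middle band the 30 min list was the closer one to the tiles. The HP1γ lists differed the other way for GC-rich peaks, with 3993 (12.5%) at 0 min and 2011 (8.44%) at 30 min, and the same way for GC-poor ones, with 50 and 583.

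**Figure D2:**
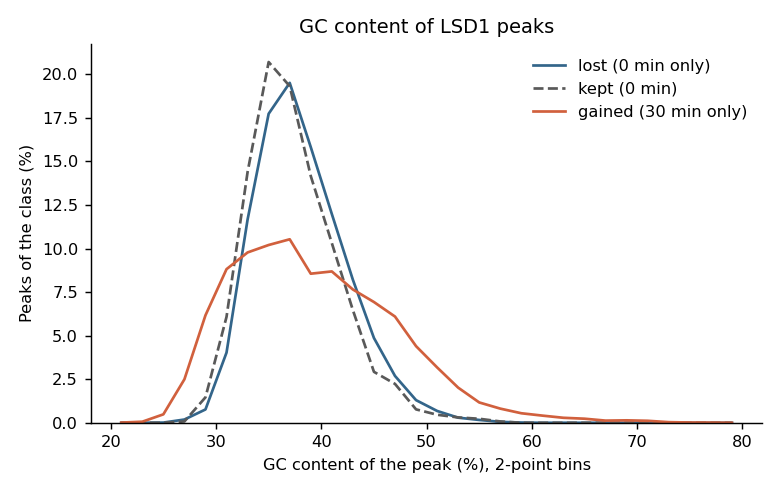
Distribution of GC content (x axis, percent, bins of 2 points) over lost, kept and gained LSD1 peaks (y axis, percent of the class). The lost and kept curves share a narrow peak below 40% GC, and the gained curve is lower there and higher at both ends.

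GC-rich peaks were closer to gene starts. Their median distance to the nearest start was 29.5 kb at 0 min and 28.4 kb at 30 min, against 85.2 and 77.9 kb over all peaks. At promoters, taken as 1 kb on either side of a gene start, lay 453 peaks at 0 min, 1.29% (1.18 to 1.42), and 326 at 30 min, 1.59% (1.43 to 1.77). Of these promoter peaks, 35 at 0 min (7.73%) and 152 at 30 min (46.6%) had 50% GC or more. GC-rich promoter peaks were thus more numerous at 30 min although promoter peaks as a whole were fewer. Among GC-rich peaks, however, the share at promoters was nearly the same, 8.31% at 0 min and 8.55% at 30 min. The larger number therefore went with that of GC-rich peaks everywhere and is not particular to promoters. Elsewhere the lists were alike: 38.6% and 36.8% of peaks were in introns, 3.804% and 3.577% in exons, and 56.3% and 58.1% between genes.

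A lost and a kept promoter region, each the highest-scored of its class off untranslated exons, are shown with the same capitals.
Lost, TMEM81 promoter, score 99.46, chr1:205054283-205054582: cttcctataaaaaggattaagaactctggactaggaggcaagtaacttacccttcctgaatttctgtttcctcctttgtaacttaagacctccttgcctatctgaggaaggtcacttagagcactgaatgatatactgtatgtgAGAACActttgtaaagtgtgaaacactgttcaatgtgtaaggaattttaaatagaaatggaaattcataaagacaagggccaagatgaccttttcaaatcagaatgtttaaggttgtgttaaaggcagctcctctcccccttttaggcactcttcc
Kept, PDE4DIP promoter, score 78.03, chr1:145076438-145076737: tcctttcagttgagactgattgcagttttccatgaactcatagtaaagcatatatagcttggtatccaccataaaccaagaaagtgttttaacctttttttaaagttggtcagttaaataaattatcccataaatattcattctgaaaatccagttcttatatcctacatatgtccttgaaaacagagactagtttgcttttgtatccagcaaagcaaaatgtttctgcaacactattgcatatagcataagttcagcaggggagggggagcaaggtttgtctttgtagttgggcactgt
TMEM81 encodes a transmembrane protein, and its window, 788 bp from the start, holds the hexamer once as AGAACA. PDE4DIP is a protein of the centrosome and Golgi, and its window holds none of the 6 motifs. The absence of a match says only that these letters are not in these 300 bp.

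The highest-scored lost promoter peak lay in NCSTN, a subunit of gamma-secretase, and nearest the start of COPA, a subunit of the coatomer coat of transport vesicles (109.32). Next came TMEM81 (99.46) and NLGN1, a synaptic adhesion protein (86.4), and then FAM72C (79.49), UBE2E1, a ubiquitin-conjugating enzyme (75.35), TRMT5, a tRNA methyltransferase (74.41), FAM13C (71.41), RPUSD2 (71.33), SLC26A7, an anion transporter (70.52), and C11orf63 (69.38). The gained promoter peaks had lower scores. They were led by OLIG1, a transcription factor of the oligodendrocyte lineage, with a peak of 68.4% GC at 15 bp from the start (78.77), and by DYNC2H1, the heavy chain of the ciliary dynein motor (69.96), and GTPBP4 (66.99). ETV3 (65.36), CAPS2 (64.38), ANAPC5, a subunit of the anaphase-promoting complex (61.4), CCZ1B (61.3), PRR15 (60.7) and SMARCD2, a subunit of the SWI/SNF remodeller (60.22), followed. Only 23 promoter peaks of the 0 min list were kept. The highest of them were at PDE4DIP (78.03), PLD1, phospholipase D (68.86), DNAJB11, a chaperone of the endoplasmic reticulum (62.54), and ZNF852 (57.35). One of them, with score 52.55, lay 111 bp from the start of AGR2, a disulphide isomerase of secretory epithelium that luminal breast cells express.

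Shares of the hormone response motifs stayed close to those of the genome. The hexamer TGTTCT, which makes up each side of a progesterone response element, was in the central 300 bp of 25.9% of 0 min peaks (25.5 to 26.4) and 23.8% of 30 min peaks (23.2 to 24.4), against 23.1% of all 300 bp tiles of the genome. In the bands of window GC below 50% the lists were closer, with 27.5% (26.7 to 28.2) and 27.0% (25.8 to 28.3) at 35 to 40% GC, where the tiles held 26.5%. In windows of 50% GC or more they were further apart, 18.4% (15.8 to 21.3) of 771 windows and 12.3% (11.1 to 13.7) of 2406, against 14.7% of tiles. The full palindrome, AGAACA and TGTTCT with 3 bases between, was in 3 of the 0 min windows and 1 of the 30 min windows, 0.00857% and 0.00488%, against 0.00569% of tiles, and each such match is also a match of the hexamer. None of the 4 was in a kept peak, beside 3.71% of all 0 min peaks and 6.38% of all 30 min peaks. A count this small cannot set palindrome peaks apart. Of the 4, 2 lost ones follow, with the palindrome in capitals and 15 bases on each side.
Lost, nearest start RORB, score 34.6, chr9:76907484-76907528: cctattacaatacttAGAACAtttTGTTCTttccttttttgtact
Lost, nearest start ACTL7B, score 32.49, chr9:111180824-111180868: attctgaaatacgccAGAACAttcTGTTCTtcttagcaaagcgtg
These 2 scores were below the median of the 0 min list, and the third lost one, not shown, scored 41.22, above the median, and overlapped a displaced BPTF peak. The other 5 motifs contain neither the hexamer nor each other.

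Of the other motifs the E-box differed most between the lists, and AP-1 was more frequent at 0 min than at 30 min in each of 4 bands of window GC. The AP-1 motif was in 11.04% of 0 min windows (10.7 to 11.4), 9.43% of 30 min windows (9.04 to 9.84) and 9.31% of tiles. At 35 to 40% GC, the shares were 11.3% (10.8 to 11.8), 9.75% (8.94 to 10.6) and 9.77%, and at 40 to 50% GC the lists were closest, 11.1% (10.6 to 11.7) and 10.7% (9.98 to 11.5), with overlapping intervals there and at 50% GC or more. The E-box was in 15.03% (14.7 to 15.4), 19.8% (19.2 to 20.3) and 20.9%. At 35 to 40% GC its shares were alike, 12.3%, 12.6% and 12.9%, but at 40 to 50% GC they were 22.5% (21.8 to 23.3), 29.3% (28.2 to 30.4) and 27.2%. GATA was in 24.7%, 22.4% and 21.2%, and at 35 to 40% GC in 26.8% (26.1 to 27.5), 24.7% (23.5 to 25.9) and 24.9%, but below 35% GC the order was the other way, 29.5% (28.6 to 30.5) and 31.0% (29.965 to 32.1). FOXA was in 5.39%, 5.38% and 4.67%, and ETS in 1.54%, 1.78% and 1.92%. These are matches of letters and not measured binding sites.

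Peak density differed greatly between chromosomes at both times, in nearly the same order. Chromosome 3 was densest, with 6079 peaks at 0 min (31.2 per Mb of sequence) and 3043 at 30 min (15.6 per Mb), and kept the most, 502 of its 0 min peaks, 8.26% (7.59 to 8.98). Chromosome 12 had 28.0 and 12.9 per Mb and chromosome 8 had 25.2 and 11.9 per Mb. At the other end, chromosome X had 0.390 and 1.02 per Mb and chromosome 19 had 0.860 and 2.56 per Mb. Density at 0 and 30 min had a Spearman correlation of 0.975 over the 23 chromosomes, which share a library at each time.

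On 7 chromosomes the 30 min list was the longer one. Chromosome 2 held 266 peaks at 0 min and 530 at 30 min, chromosome 4 held 292 and 481, chromosome 18 held 74 and 170, and chromosome 19 held 48 and 143. Chromosome 20 held 232 and 266, chromosome 22 held 45 and 94, and chromosome X held 59 and 154. These were the 7 chromosomes with the lowest density at 0 min. Together they went from 1016 to 1838 peaks, a change of 80.9%, while the other 16 chromosomes, including chromosome 16 with 473 at each time, went from 33974 to 18657, a change of -45.1%. Of the 1016, 16 were kept, 1.57%. The HP1γ list was also longer at 30 min on chromosomes 2, 4, 18, 22 and X, and shorter on chromosomes 19 (113 and 110) and 20 (404 and 267). Over the 23 chromosomes the ratio of 30 min to 0 min peaks had a Spearman correlation of 0.699 between LSD1 and HP1γ. The pattern is thus not particular to LSD1.

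**Figure D3:**
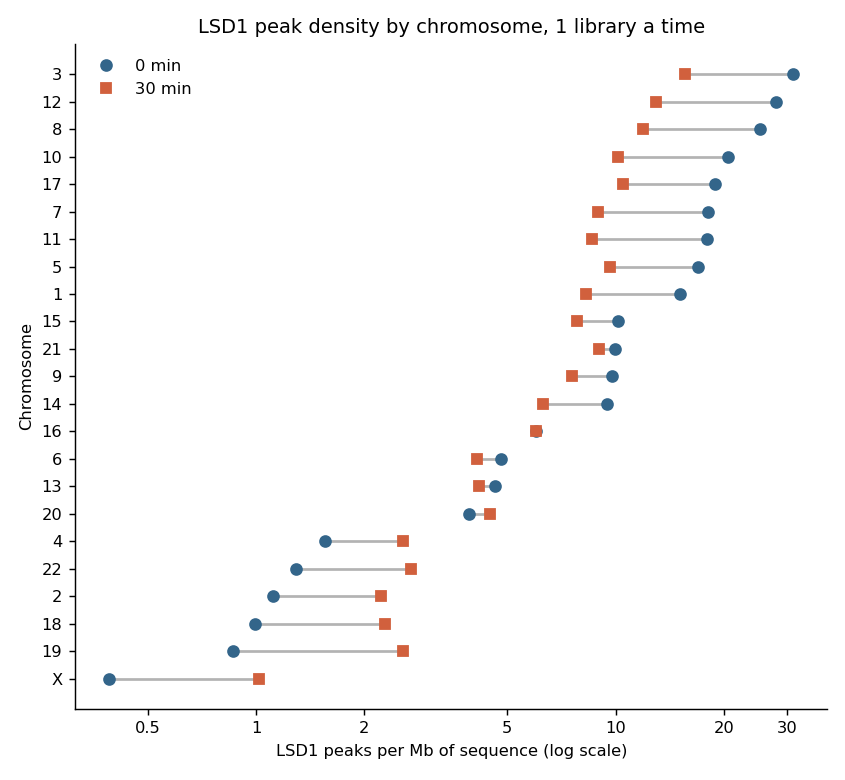
LSD1 peaks per Mb of sequence (x axis, log scale) on each chromosome (y axis, ordered by density at 0 min), at 0 min (circles) and 30 min (squares), 1 library a time. The 30 min points lie to the left on dense chromosomes such as 3 (31.2 and 15.6) and to the right on sparse ones such as X (0.390 and 1.02).

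On some chromosomes the 2 arms differed in opposite directions. The long arm of chromosome 1 went from 31.05 to 15.05 peaks per Mb, a change of -51.5%, while its short arm went from 1.28 to 2.42 per Mb, a change of 89.6%. The long arm of chromosome 3 went from 49.8 to 23.9 per Mb (5204 to 2500 peaks) and held 471 kept peaks, and its short arm went from 9.69 to 6.01. The short arm of chromosome 9 went from 89 to 219 peaks and its long arm from 1083 to 687. Both directions also occurred within single arms: on the long arm of chromosome 7 the window chr7:80000001-85000000 went from 237 to 75 peaks, and chr7:95000001-100000000 from 4 to 17.

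In windows of 5 Mb the same was seen at a finer scale. Of 569 windows, 281 held more peaks at 30 min, 276 held fewer and 12 held the same number. At 0 min 23 windows were empty and at 30 min 1 was. The densest window, chr3:170000001-175000000, went from 571 to 323 peaks, 98 of them kept. Ranked into 5 equal groups by LSD1 peaks at 0 min, the groups changed by 291%, 93.9%, -0.378%, -35.8% and -56.4% from sparsest to densest, a ranking that uses one side of the comparison. HP1γ peaks at 0 min come from another library, but their density followed that of LSD1 over the 23 chromosomes (Spearman correlation 0.983). A ranking by them is therefore not independent of the first. Ranked by HP1γ peaks at 0 min, the groups changed by 113%, 107%, -16.4%, -37.5% and -55.0%. In the 2 sparsest of these groups 105 and 104 of 114 windows held more LSD1 peaks at 30 min, and in the densest 112 of 114 held fewer. The LSD1 peaks were therefore spread more evenly over the genome at 30 min.

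**Figure D4:**
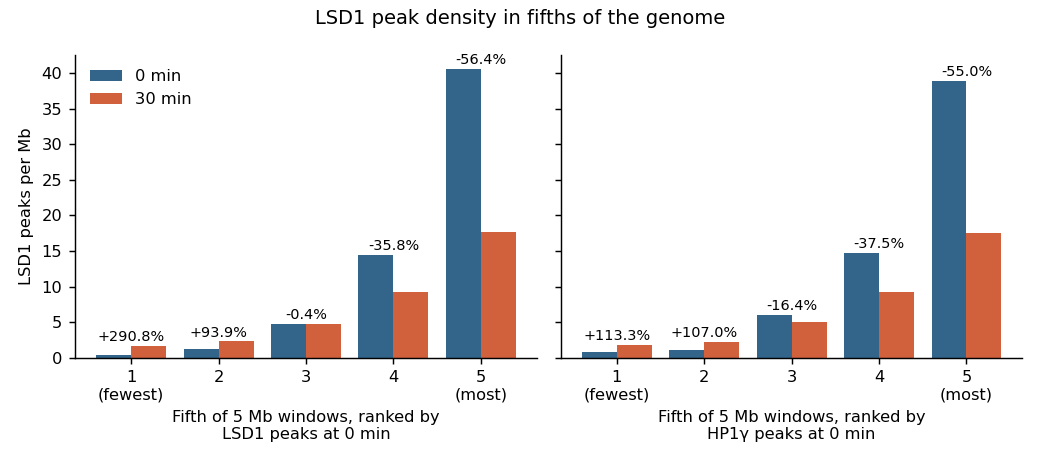
LSD1 peaks per Mb (y axis) at 0 and 30 min in 5 groups of 5 Mb windows (x axis, fewest to most), ranked by LSD1 peaks (left) or HP1γ peaks (right) at 0 min, with the change in number above each pair of bars. Bars are higher at 30 min in the sparse groups and lower in the dense ones under both rankings, with -56.4% and -55.0% in the densest.

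Genes were assigned a peak when one lay in the gene or within 5 kb of it, over the 20318 protein-coding genes of the H2A table. A peak at 0 min only was found at 2422 genes, 11.9% of all, a peak at 30 min only at 2093, 10.3%, and peaks at both times at 2884, 14.2%. The remaining 12919 genes had none. Of the 2884 genes with peaks at both times, 451 (15.6%) held a kept peak, so in the others the peaks lay at separate places in the same gene. Single peaks made up most of the exclusive classes, at 65.5% of the 0 min-only genes and 82.6% of the 30 min-only genes. With the 0 min list cut to its 20495 highest-scored peaks, the 0 min-only genes numbered 1502 and the 30 min-only genes 2685, so which class is larger depends on the length of the lists.

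Most of the peaks assigned to genes were in genes over 100 kb, and the relative change in number was larger in long genes. Genes with peaks at both times had a median length of 90.7 kb, against 31.0 kb for 0 min-only, 38.3 kb for 30 min-only and 13.8 kb for genes with none. Genes of 100 to 300 kb went from 5693 to 3158 peaks (-44.5%), genes over 300 kb from 4994 to 2520 peaks (-49.5%), and genes under 10 kb from 851 to 620 (-27.1%). Of the gene spans deposited by the authors, 34.3% covered under 90% of the span in a later annotation, so some gene starts and flanks are placed inside a gene, and some peaks listed between genes lie in one. Of 22 peaks named here as between genes or listed so by the same rules, 5 lay inside a gene span of the later annotation, those near TMC6, NOTCH2, LSG1 and EVL in these genes and that near ATP13A5 in ATP13A4.

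The same 5 genes had the most peaks at both times. NLGN1, a neuroligin that bridges synapses, went from 122 to 70 peaks, 18 of the 0 min ones kept. CTNNA3, an alpha-catenin of cell junctions, went from 97 to 31, FGF12, an intracellular fibroblast growth factor homologue, from 72 to 33, CADM2, a cell adhesion molecule, from 71 to 44, and MECOM from 67 to 35. All but CTNNA3, on chromosome 10, are on chromosome 3. Changes relative to the totals of the lists were ranked among genes with at least 10 peaks in the lists together. The largest upward were at ROBO1 (2 to 8 peaks) and ROBO2 (4 to 9), receptors for the guidance cue Slit. GMDS, an enzyme of GDP-fucose synthesis (4 to 10), and CCDC144A (3 to 7), whose span is listed under a further identifier too, followed in this group. Each fell short of 10 peaks at 0 min and passed that minimum only with its 30 min peaks. The largest changes downward, among genes with at least 10 peaks in the lists together, were to 0 peaks at 30 min, and these genes passed that minimum through their 0 min peaks alone. They were ZNF462, a zinc finger gene (20 peaks at 0 min), CA10, a carbonic anhydrase-related protein (15), PALM2, a paralemmin (15), ATF6, a sensor of stress in the endoplasmic reticulum (12), and MPPED2, a phosphoesterase (11).

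Progestin response genes were read as a list of 36 known targets and mediators. Peaks at 0 min only were at 7, at 30 min only at 5, at both times at 7 and at neither at 17, beside 11.9%, 10.3% and 14.2% of all genes. The list held 38 peaks at 0 min and 19 at 30 min. None of the 38 was kept, beside 3.71% of all 0 min peaks, so a count this small cannot set the list apart. With so few genes the shares, 19.4%, 13.9% and 19.4%, rest on single peaks. RGS2, a regulator of G protein signalling, had the highest score, with 2 peaks at 0 min, the upper one at 67.74, and 0 at 30 min. TIPARP, a mono-ADP-ribosyltransferase, went from 5 to 1 with upper scores of 64.9 and 39.23, and KLF4, a zinc finger transcription factor, had 1 peak at 0 min with score 60.79 and 0 at 30 min. PGR, the progesterone receptor itself, had 3 peaks at 0 min, the upper one in an intron at 33.6, and 1 at 30 min, downstream of the gene at 55.45. EGFR, the epidermal growth factor receptor, went from 9 to 4 and NDRG1, a stress response gene, from 5 to 0. FKBP5, a cochaperone of steroid receptors and a classical progestin target, had 2 peaks at 0 min and 3 at 30 min, the upper ones in introns with scores of 34.65 and 47.52. ELF5, a transcription factor of the mammary secretory lineage, went from 2 to 1, STAT5B, a transcription factor downstream of prolactin, from 3 to 1, and CDKN1A, an inhibitor of cyclin-dependent kinases, from 0 to 1. Both directions occurred in the list.

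**Figure D5:**
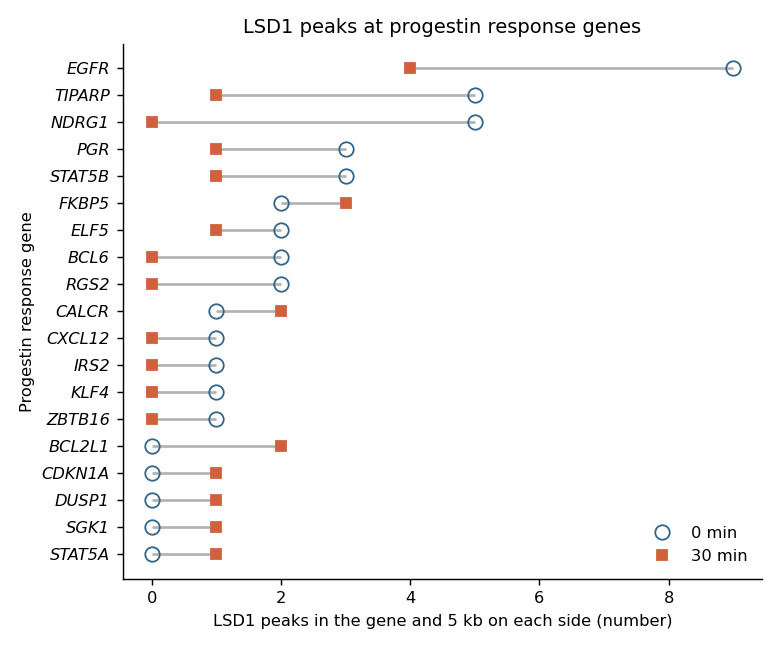
Number of LSD1 peaks in the gene and 5 kb on each side (x axis) at 0 min (circles) and 30 min (squares) for the 19 progestin response genes with a peak (y axis). EGFR has the most, 9 and 4, and FKBP5, CALCR, BCL2L1, STAT5A, CDKN1A, DUSP1 and SGK1 have more at 30 min.

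Nuclear receptors, steroid receptors among them, and their coregulators held 46 peaks at 0 min and 19 at 30 min over 20 genes, 8 of them with peaks at both times. Of all genes, 14.2% had peaks at both times. Their median length was 120.2 kb, against 21.9 kb over all genes. NCOA2, a steroid receptor coactivator gene on the long arm of chromosome 8, went from 19 to 4 peaks. NR3C1, the glucocorticoid receptor, went from 9 to 3, and NRIP1, a corepressor, from 3 to 4. RARA, the retinoic acid receptor alpha, had 2 peaks at 0 min, one at its start with score 40.55, and 0 at 30 min.

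Among the genes of LSD1's own complexes, 31 genes for LSD1, CoREST, NuRD and HP1 proteins, 2 had peaks at 0 min only, 4 at 30 min only, 7 at both times (22.6%, against 14.2% of all genes) and 18 at neither (58.1%, against 63.6%). KDM5B, an H3K4 demethylase, went from 5 to 2 with an upper score of 87.54 at 0 min. CBX5, which encodes HP1α, went from 3 to 1, CBX3, which encodes HP1γ, from 2 to 0, and KDM1A itself from 0 to 1 (41.58). Of 30 histone methyltransferases and demethylases 18 (60.0%) had no peak, and the list held 28 and 25. KMT2C, an enhancer H3K4 methyltransferase, went from 7 to 5 and JMJD1C from 9 to 7.

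The enzymes of poly-ADP-ribose and nuclear ATP metabolism held 29 and 14 peaks over 21 genes. Of these genes, 4 had peaks at 0 min only (19.0%), 3 at 30 min only (14.3%) and 6 at both times (28.6%). Over all genes the shares were 11.9%, 10.3% and 14.2%. Median length was 33.2 kb in the list and 21.9 kb over all genes. TNKS2, a tankyrase, went from 8 to 2 with an upper score of 102.07 at 0 min, and NMNAT2, which makes NAD, from 8 to 0. NUDT5, which can turn ADP-ribose into ATP, had 2 peaks at 0 min and 0 at 30 min. One of its 2 peaks, chr10:12237030-12237530 with score 42.98, lay within 1 kb of its own start at chr10:12238143. The start of the neighbouring CDC123 was nearer, at 684 bp, so the peak lay at both promoters. PARP1 went from 1 to 0 and PARG, which degrades the polymer, from 1 to 2.

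Among other lists, both cell identity lists held fewer peaks at 30 min, as all genes together did (17652 and 10023). Luminal genes (20) held 12 and 9, with AGR2 at 3 and 3, PRLR, the prolactin receptor, at 5 and 1, and GATA3 at 0 and 1. Basal and mesenchymal genes (18) held 48 and 17, of which TP63 on the long arm of chromosome 3 gave 32 and 8. Synaptic adhesion genes (32), with a median length of 320.0 kb, held 327 and 183. Peaks at both times were at 13 of them (40.6%), against 14.2% of all genes. TENM2 went from 41 to 16 and LRRC4C from 39 to 26. Immediate-early genes (29) were short and mostly empty, 23 (79.3%) with no peak, against 63.6% of all genes. Among them ATF3 went from 3 to 0. Genes of the G1/S transition and replication (26) held 7 and 6, and immune genes (16) held 14 and 15, with PTPRC at 6 and 9. Olfactory receptor genes, 381 in all, had peaks at 0 min only at 40 and at 30 min only at 12, 10.5% and 3.15%, against 11.9% and 10.3% of all genes. Zinc finger genes, 506, had 56 and 44, 11.1% and 8.70%, near those of all genes. HOX genes, 39, had 8 and 2, 20.5% and 5.13%, shares that rest on few genes. Neighbouring genes can also share a peak through the flanks, so genes of one list are not separate counts. The 0 min peak chr7:27176945-27178016 counted for both HOXA3 and HOXA5, and chr11:123814233-123814912 for the olfactory receptor genes OR4D5 and OR6T1. Olfactory receptor genes are short, with a median of 1.03 kb.

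LSD1 and HP1γ peaks overlapped little, and more at kept LSD1 peaks. An HP1γ peak at 0 min overlapped 6.78% of lost LSD1 peaks (6.52 to 7.06) and 14.9% of kept ones (13.1 to 17.0). At 30 min an HP1γ peak overlapped 3.20% of gained LSD1 peaks (2.96 to 3.46) and 8.87% of the 30 min peaks that were kept (7.45 to 10.5). Over all 0 min LSD1 peaks the overlap with HP1γ at 0 min went from 5.06% in the lowest score decile to 13.4% in the highest, so it moved with score, as the kept share did. Among GC-rich LSD1 peaks the overlap with HP1γ of the same time was 9.03% at 0 min and 2.64% at 30 min.

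BPTF is the largest subunit of the NURF remodeller, and the authors deposited its peaks as displaced by hormone or recruited by it. Of the 5546 displaced peaks, 298 (5.37%) overlapped an LSD1 peak at 0 min, 126 (2.27%) one at 30 min and 15 both. Of the 1848 recruited peaks, 64 (3.46%) overlapped LSD1 at 0 min, 35 (1.89%) at 30 min and 6 both. The sequence covered by all LSD1 peaks changed by -54.0%, so the lower overlap at 30 min does not set BPTF peaks apart. Displaced BPTF peaks met 0.866% of LSD1 peaks at 0 min and 0.620% at 30 min, and recruited ones 0.183% and 0.171%. A displaced BPTF peak overlapped 0.849% of lost LSD1 peaks (0.756 to 0.953), 1.31% of kept 0 min ones (0.819 to 2.09) and 0.589% of gained ones (0.490 to 0.708). The peaks named next were picked for such an overlap and do not stand for their class. The highest-scored lost LSD1 peaks, in ACAP2 and near ATP13A5, both overlapped a displaced BPTF peak. So did the lost peak at 211.2 kb from the start of SOX2 (132.88) and that in an intron of MPP6 (94.16), while the one near LSG1 (93.16) was kept. At 30 min the highest such peak was a kept one near NOTCH2 (95.78), with a gained one in PIK3CA (61.01) further down. Recruited BPTF peaks met lost LSD1 peaks near LRRC31 (104.14) and GATA3 (91.32, at 1006 kb from its start) and a gained one near EVL (67.3) at 30 min.

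Histone H2A over the gene changed little with the LSD1 class once GC content was taken into account. H2A change is the log2 ratio of RPKM plus 0.05 at 30 min to that at 0 min, leaving out genes whose mean RPKM was under 0.1. Its median was -0.07 at 0 min-only genes, -0.14 at 30 min-only genes, 0.01 at genes with both and -0.19 at genes with none, against -0.14 over all genes. The classes also differed in GC content, with gene medians of 42.5, 44.7, 40.1 and 48.5%. In the GC-poorest of 5 equal groups of genes the medians were 0.15, 0.16, 0.16 and 0.15, and in the GC-richest -0.32, -0.31, -0.29 and -0.32. The spread of H2A change over GC was thus larger than that between LSD1 classes.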

How the data were processed

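LSD1, HP1γ and BPTF peaks and H2A RPKM came from ChIP-seq of T47D-MTVL cells, 1 library for each antibody and time. Tools named in the submitters' processing notes were HOMER 4.7.2 and Bowtie 1.0.0, and the build was hg19 (GRCh37). Each LSD1 and HP1γ peak has the score that the authors deposited with it. Peak names follow the MACS pattern, but caller version, control, score definition and read handling are not given in the sources used here, and the depth of these libraries is unknown. BPTF lists were deposited as positions only. H2A RPKM of genes was deposited by the authors, counted on version 18 of GENCODE per the file headers. Titles gave the antibody and time that define each group.

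Overlap needed 1 bp, genes took 5 kb flanks and promoters 1 kb on each side of the gene start. Genes, starts, exons and introns came from the START and END of the H2A table and from version 44 of GENCODE lifted to GRCh37, to which 19606 of 20318 identifiers (96.5%) matched. GC content, motifs and tandem repeats were read from GRCh37, whose copy has no repeat masking, so no repeat share was computed. H2A changes used a pseudocount of 0.05 and a mean RPKM of at least 0.1. Shares carry Wilson 95% intervals, which cover counting error only. Python 3.11.15, numpy 2.4.6, pandas 2.3.3, scipy 1.17.1 and pysam 0.24.0 were used, and the overlap and repeat functions were tested on simulated data.

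The regions, gene lists and tests were chosen with earlier results of these data known. Named peaks and genes were the 5 highest-scored lost, gained and kept peaks, the 10 highest at promoters in each class, the 5 genes with most peaks at each time, the 5 with the largest change of list share each way among genes with at least 10 peaks, the progestin genes with the 10 highest scores, up to 4 genes of every other list and the 5 highest LSD1 peaks at BPTF peaks of each kind. Further names, the tandem-repeat measure and the GC-rich region were chosen after values were seen. Some named genes and sequences that these rules pick are not reported here. NAPRT1 and the older symbols ODZ1, ODZ2, ODZ3 and ODZ4 matched no gene of the table. Alternatives varied the score minimum, the overlap, the flanks, the promoter width, list length, chromosome 3 and the annotation.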

Additional observations from a re-analysis of the deposited data

How the results depend on the processing

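Of 49 alternative values of 8 results, 21 stayed near the value in the report, 27 moved and 1 turned direction. Counting only the 7 chromosomes with more 30 min peaks, a choice made after seeing the data, the change in peak number was 80.9% instead of -41.4%. It was -66.3% at a score of at least 50, -75.9% at a score of at least 100 and -39.6% without chromosome 3. The share of 0 min peaks kept was 1.26% at scores of at least 50, 0% at 100, 4.59% with lists of equal length, 2.76% without chromosome 3, 1.67% with 50% of both peaks overlapping and 7.69% within 1 kb. The share of 30 min peaks gained was, in the same order, 96.3%, 100%, 95.4%, 95.4%, 97.2% and 87.4%. Promoter shares at 0 and 30 min were 3.32% and 3.52% with 2.5 kb, 2.66% and 2.90% with transcript starts of GENCODE 44, a choice made after seeing the data, and 0% at 30 min for scores of at least 100. Genes with 0 min peaks only, 30 min peaks only and both numbered 1158, 383 and 241 at scores of at least 50 and 32, 7 and 1 at 100, and the first class 1502 with lists of equal length. Other flanks and the gene spans of GENCODE 44 left all 3 classes within 1.5 times. Equal list length fixes the change in peak number, so it has no value there. With 1 library at each time none could be left out. No paired analysis was possible because there was 1 library on each side and no result came from a test. Depth is unknown and limits all counts.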
